A study of Mus musculus with 4 samples.

Results

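Coenzyme A (CoA) is made from the vitamin pantothenate and broken down again, and the genes described here encode enzymes of both arms. The list named 9 mouse genes: the pantetheinases Vnn1 and Vnn3, the pantothenate kinases Pank1, Pank2 and Pank3, the later synthesis enzymes Ppcs and Coasy, and the Nudix hydrolases Nudt7 and Nudt19. Every probe set (a group of short array probes summarised as 1 signal) annotated to a single listed gene was taken, which gave 12 probe sets for 8 genes, among 12393 named genes on the array. No probe set annotated to Pank2 alone was found. The list was drawn up with the starved and control signals of these arrays already known, so the differences between the groups below are a description and not a test of the list.

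The starved group was 2 wild-type mice with a C57/BL6 background, aged 1 month and starved for 24 h. The control group was 2 wild-type mice of the same background and age. Total RNA from whole liver was hybridised to 1 Affymetrix array per mouse, and the labels call the arrays of a group biological replicates. The label descriptions speak of injected (starved) and not-injected (control) mice without naming an injection, so starvation and any injection cannot be told apart. The values are log2 signals, on which a difference of 1 is a 2-fold change, and each difference was taken as starved mean minus control mean.

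CoA carries acyl groups in fatty acid oxidation, fatty acid synthesis and the tricarboxylic acid cycle, and the liver is known to raise its CoA content during fasting. Pantothenate kinases start the synthesis and are inhibited by acyl-CoA, Ppcs and Ppcdc turn phosphopantothenate into phosphopantetheine, and Coasy completes CoA. Peroxisomal Nudix enzymes cleave CoA into phosphopantetheine and an adenosine bisphosphate, and vanins outside the cell cut pantetheine into pantothenate, which can be used again, and cysteamine.

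RefSeq promoter windows of assembly GRCm38.p6, 250 bases before to 50 after a start, were at hand for 7 of the 9 genes and not for Vnn1 and Coasy. Those of Vnn3, Pank3 and Nudt7 are printed because these genes held probe sets with group differences over 2-fold, in opposite directions. Capitals mark matches on either strand to CCAAT or to the GC box GGGCGG. The windows are chr10:23851212-23851511 (plus strand) for Vnn3, chr11:35769245-35769544 (plus strand) for Pank3 and chr8:114133368-114133667 (plus strand) for the first listed start of Nudt7.
Vnn3: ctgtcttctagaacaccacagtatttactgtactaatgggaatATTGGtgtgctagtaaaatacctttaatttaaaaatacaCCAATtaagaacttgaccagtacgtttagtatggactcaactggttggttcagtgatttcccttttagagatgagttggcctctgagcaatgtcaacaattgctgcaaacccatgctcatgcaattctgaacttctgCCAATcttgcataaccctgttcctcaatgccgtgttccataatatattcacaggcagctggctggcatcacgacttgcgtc
Pank3: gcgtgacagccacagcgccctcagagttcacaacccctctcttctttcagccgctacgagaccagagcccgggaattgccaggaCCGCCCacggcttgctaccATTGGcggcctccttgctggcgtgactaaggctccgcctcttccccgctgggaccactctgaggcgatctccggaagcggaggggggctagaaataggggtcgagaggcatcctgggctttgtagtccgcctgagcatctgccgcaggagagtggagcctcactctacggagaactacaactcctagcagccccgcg
Nudt7: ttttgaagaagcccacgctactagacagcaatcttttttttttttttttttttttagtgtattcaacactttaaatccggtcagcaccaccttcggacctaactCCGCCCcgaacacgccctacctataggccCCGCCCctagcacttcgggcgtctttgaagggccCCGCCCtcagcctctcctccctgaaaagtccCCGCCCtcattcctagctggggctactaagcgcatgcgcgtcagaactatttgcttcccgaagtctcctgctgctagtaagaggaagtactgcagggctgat
The Nudt7 window held 4 GC boxes, with their first bases 146, 117, 83 and 52 bases before the start. At least 1 GC box was found in 35.7% of all 32851 promoter windows, and at least 4 in 5.49%. The Vnn3 window held 3 CCAAT matches and 0 GC boxes, and 3 or more CCAAT matches were found in 3.37% of all windows. The Pank3 window held 1 match to each. The AGGTCA hexamer that nuclear receptors bind was searched as well. It had no match in these 3 windows and 1 in the Ppcs window, against 16.3% of all windows. Its direct repeat AGGTCANAGGTCA had no match in any window of the listed genes and was found in 0.0396% of all windows. No E-box (CACGTG, 7.15% of all windows) was found in the listed genes' windows, and TATAAA (13.6% of all windows) matched only a window of Pank1. Matches describe these letters and say nothing on binding.

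The pantetheinases were higher in starved liver. Vnn1, a membrane-anchored pantetheinase that is a known target of the fatty acid receptor PPAR-alpha, had signals of 11.29 and 12.41 in starved livers, against 8.79 and 8.75 in control livers. Both starved livers lay far above both controls, and the groups did not overlap. The starved mean was 11.85 ± 0.80 and the control mean 8.77 ± 0.02 (SD, n = 2 each), a difference of 3.08 ± 0.35 (SE), or 8.46-fold. That was the 7th largest difference in either direction among the 22626 probe sets tested and the 4th largest upward. The starved mice differed from each other by 1.12, a gap larger than in 99.5% of probe sets, while the controls differed by 0.03. Each starved array alone still put Vnn1 at least 2.52 above the control mean, and starved 2 alone put it at 3.64.

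Vnn3, a second pantetheinase of the vanin family, had 10.45 and 10.56 in starved livers, against 9.05 and 8.89 in control livers. The groups again did not overlap, and in contrast to Vnn1 the starved mice were close together. The means were 10.50 ± 0.08 in starved and 8.97 ± 0.11 in control livers (SD, n = 2 each), a difference of 1.53 ± 0.12 (SE), or 2.89-fold. It ranked 32nd among upward differences. Leaving out any 1 array kept it between 1.45 and 1.61.

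**Figure D1:**
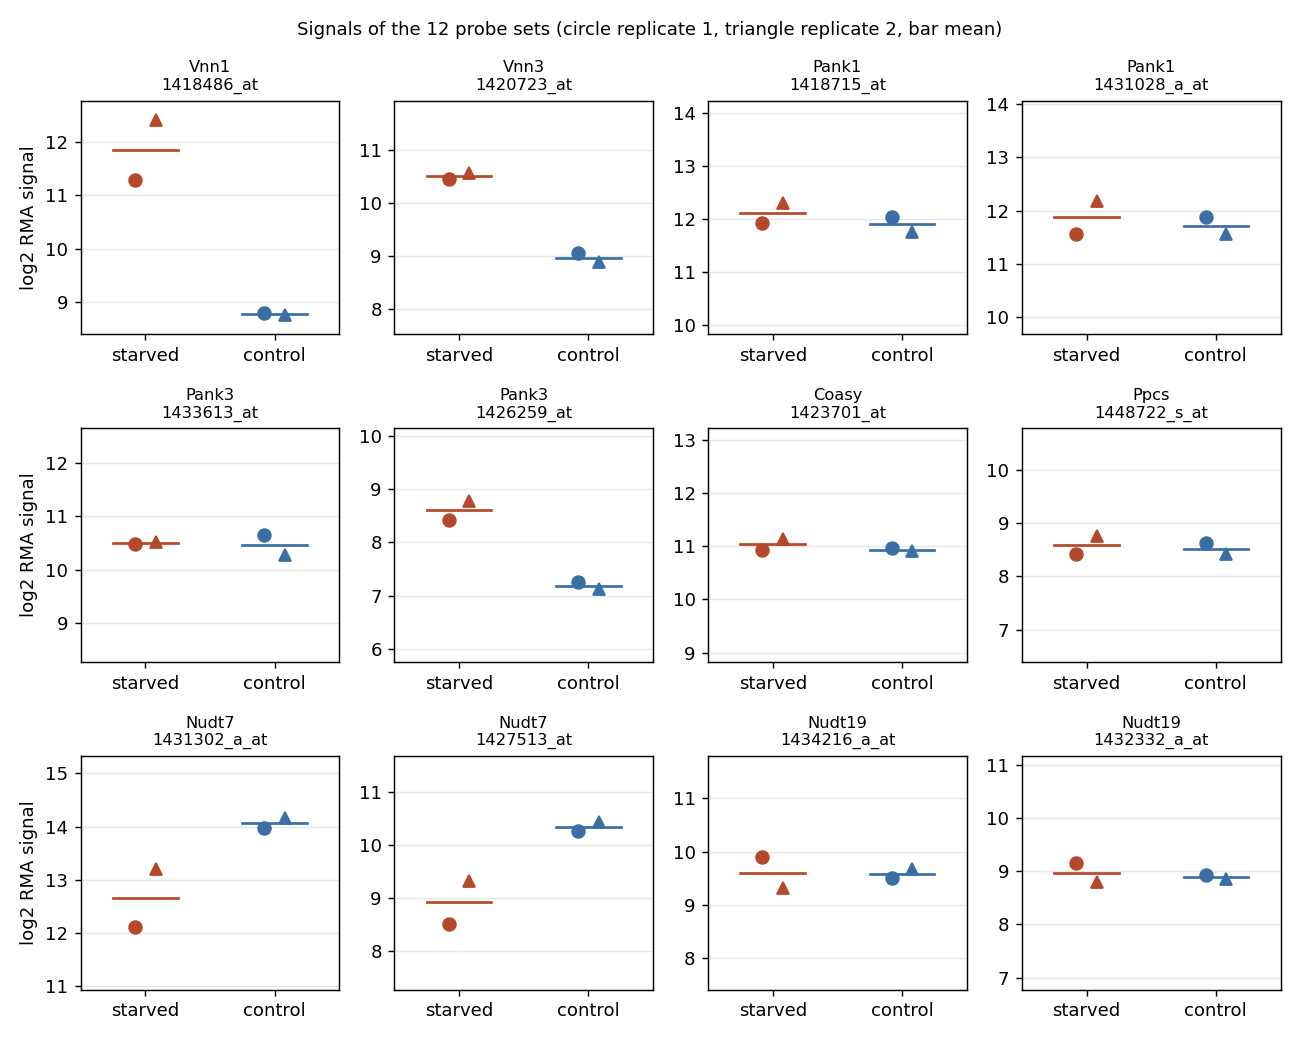
Log2 signals of the 12 probe sets in starved (left) and control (right) livers, with circles for replicate 1, triangles for replicate 2 and bars for the group means; every panel spans the same range. Vnn1, Vnn3 and 1 Pank3 probe set lie higher in starved livers, both Nudt7 probe sets lie lower, and the other 7 overlap.

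Vnn3 and Vnn1 are next to each other on chromosome 10 in the gene order of GRCm38.p6, with 0 other protein-coding genes between them. The 3 nearest measured protein-coding genes on each side were read at their highest-mean probe set, a choice made after the vanin values were seen. In all 6 the groups overlapped. Eya4, at 3.89 to 4.21, and Taar1, at 4.04 to 4.39, lay below the array median of 6.70 to 6.73 on every array. Tcf21 lay below it on all arrays but control 1 (6.90). A small difference at such low signals says little. On the Vnn3 side the differences were 0.09 ± 0.15 for Eya4, -0.31 ± 0.22 for Tcf21 and 0.02 ± 0.13 for Tbpl1 (SE). On the Vnn1 side they were 0.11 ± 0.16 for Taar1, an amine receptor, and -0.04 ± 0.12 for Stx7, a syntaxin of endosomes. Moxd1, the 17th gene beyond Vnn1, had 11.94 and 12.07 in starved livers, against 8.90 and 12.84 in control livers. Its controls lay on either side of the starved pair, so its difference of 1.14 ± 1.16 rested on control 1.

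The pantothenate kinases did not read alike. For Pank3, the kinase isoform known to be strongly inhibited by acetyl-CoA, the 2 probe sets gave different answers. Probe set 1426259_at had 8.43 and 8.78 in starved livers, against 7.26 and 7.12 in control livers. It separated the groups, with a difference of 1.42 ± 0.16 (SE), or 2.67-fold, the 39th largest upward. Probe set 1433613_at had 10.49 and 10.51 in starved livers, against 10.65 and 10.27 in control livers. Here both starved signals lay between the controls, and the difference was 0.04 ± 0.16.

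The gap of 1.38 between the 2 Pank3 differences was set beside that of every other gene with exactly 2 probe sets. Over 3057 such genes the median gap was 0.14 and the 95th percentile 0.50, and Pank3 had the 6th largest gap. For the other listed genes with 2 probe sets the gap was 0.004 in Nudt7, 0.06 in Pank1 and 0.06 in Nudt19. A rule that keeps the brighter probe set of each gene reads Pank3 from 1433613_at and gives 0.04, and the mean of both probe sets gives 0.73. Which transcripts or transcript ends each Pank3 probe set reads was not analysed here.

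**Figure D2:**
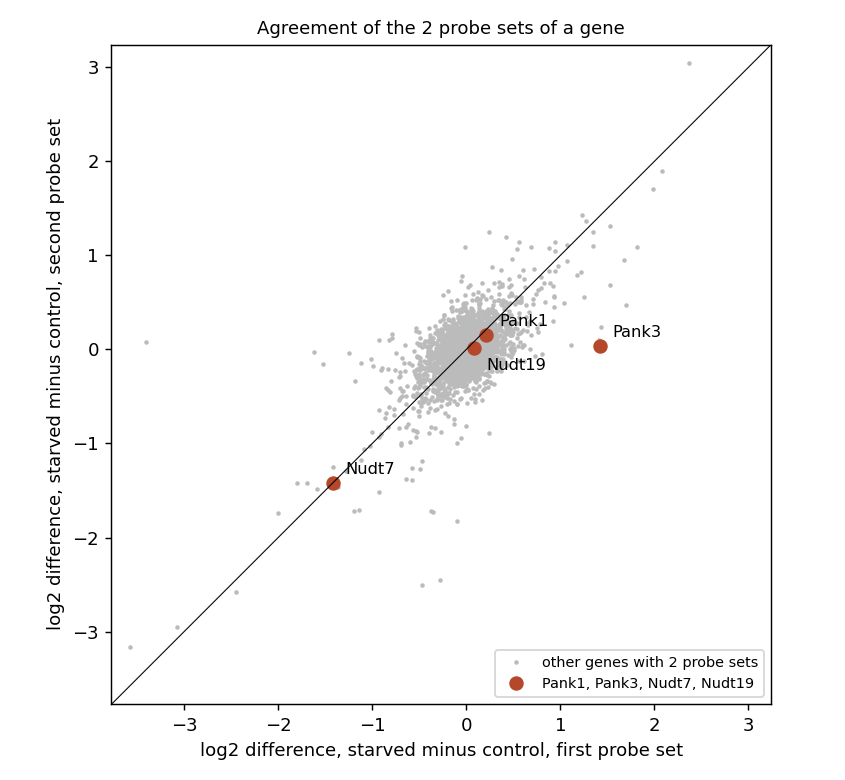
Log2 difference (starved minus control) at the 1st and 2nd probe set of each of 3057 genes with 2 probe sets, with the line of equality. Nudt7 lies on the line at -1.42, Pank1 and Nudt19 lie near the origin, and Pank3 lies off the line at 1.42 and 0.04.

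Pank1, which encodes the kinase isoforms prominent in liver, did not separate the groups at either probe set. Probe set 1418715_at had 11.93 and 12.30 in starved livers, against 12.04 and 11.76 in control livers, a difference of 0.21 ± 0.18 (SE). Probe set 1431028_a_at had 11.56 and 12.18 in starved livers, against 11.88 and 11.55 in control livers, a difference of 0.15 ± 0.23. In both, starved 2 was the highest array and starved 1 lay between the controls, and the second difference was -0.16 without starved 2 or 0.47 without starved 1.

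The later enzymes of synthesis had small differences within the spread of the mice. Ppcs, which joins cysteine to phosphopantothenate, had 8.43 and 8.75 in starved livers, against 8.62 and 8.42 in control livers, a difference of 0.07 ± 0.16 (SE) at 1448722_s_at. Probe sets of this suffix may read related transcripts. A second probe set, annotated jointly to Ppcs and Gm8465 and therefore not counted, had a difference of 0.0003 ± 0.16. Coasy, the bifunctional enzyme of the last steps, had 10.93 and 11.14 in starved livers, against 10.97 and 10.90 in control livers, a difference of 0.10 ± 0.13. For both genes starved 1 lay within the control range and starved 2 above it.

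Nudt7, the peroxisomal CoA hydrolase that is prominent in mouse liver, was lower in starved liver at both of its probe sets. Probe set 1431302_a_at had 12.11 and 13.20 in starved livers, against 13.97 and 14.16 in control livers. Probe set 1427513_at had 8.52 and 9.33 in starved livers, against 10.26 and 10.43 in control livers. The groups did not overlap at either probe set, and starved 1 was the lowest array at both. The differences were -1.42 ± 0.34 and -1.42 ± 0.27 (SE), a signal 2.67-fold lower in each, and they ranked 77th and 74th among the largest downward differences. Because starved 1 lay so low, the first difference was -0.87 without starved 1 and -1.96 without starved 2, and the second was -1.01 and -1.82.

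Nudt19, a second peroxisomal CoA hydrolase and known mainly from mouse kidney, overlapped between the groups. Probe set 1434216_a_at had 9.89 and 9.31 in starved livers, against 9.50 and 9.68 in control livers, so the starved mice lay on either side of the controls. Its difference was 0.02 ± 0.21 (SE). Probe set 1432332_a_at had 9.15 and 8.80 in starved livers, against 8.94 and 8.86 in control livers, a difference of 0.08 ± 0.15, with the same arrangement. Whether Nudt7 and Nudt19 differ in their response was not tested.

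Counted together, 3 probe sets lay above the controls on both starved arrays (Vnn1, Vnn3 and 1 of Pank3; 21.3% of all probe sets did), 2 lay below (both of Nudt7; 20.6% of all probe sets did) and 7 overlapped. The groups did not overlap in 5 of the 12 (41.7%), and in 41.9% of all probe sets, which is near enough that the count of separations says nothing about these genes. A difference over 2-fold was seen in the same 5, and in 1.16% of all probe sets. The median difference was 0.09 over the 12 and 0.003 over all probe sets. In the limma fit across all 22626 probe sets, with Benjamini-Hochberg adjustment and a threshold of 0.05, 1 of the 12 (Vnn3) was called, or 8.33%, against 0.0575% of all probe sets. Since the list was made with this contrast known, nothing is read from either share. The call of Vnn3 was not made without control 2, where its difference was 1.45. Without starved 1 or without starved 2 the call was of Vnn1 in place of Vnn3, and with trend and robust variance settings Pank3 1426259_at was called beside Vnn3.

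The starved mice differed from each other by amounts that varied between these genes. Starved 2 read higher than starved 1 at 10 of the 12 probe sets, against 49.8% of all probe sets, and both exceptions were Nudt19. The gap was 1.12 for Vnn1, 1.09 and 0.81 for Nudt7 and 0.63 for Pank1 1431028_a_at, wider than in 97.7% to 99.5% of probe sets. Nudt19 1434216_a_at had a gap of 0.59 in the opposite direction, wider than in 97.1%. Vnn3, at 0.11, and Pank3 1433613_at, at 0.02, had gaps wider than in only 41.3% and 9.73% of probe sets. Thus the mouse with the higher Vnn1 had the smaller Nudt7 deficit. Probe sets of 1 gene share their RNA and are not independent. As a measure of RNA integrity, the 3′ probe set of actin exceeded the 5′ probe set by 2.06 on starved 1 and by 1.85 on starved 2, against 1.79 and 1.76 on the control arrays. The same measure for Gapdh was 0.86 on starved 1 and 0.48 on starved 2, against 0.65 and 0.54 on the control arrays, so on that measure the starved arrays lay on either side of the controls. Their part in these differences was not tested.

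All 12 probe sets lay above the array median on all 4 arrays. Hepatocyte markers, 8 of 10 of them measured, averaged 14.56 and 14.34 in starved livers, against 14.47 and 14.44 in control livers. Among them Tat had 13.65 and 12.41 in starved livers, against 13.20 and 13.04 in control livers. The groups overlapped at 9 of 16 hepatocyte probe sets, with 4 separated upward and 3 downward. Fgb had the largest difference in this list, at -0.34 ± 0.12 (SE). In whole liver, fewer cells of a type and less RNA per cell cannot be told apart. Neutrophil markers, 8 of 9 measured, averaged 5.43 and 5.65 in starved livers, against 5.36 and 5.95 in control livers, and 6 of them (Mpo, Elane, Ngp, Camp, Ltf and Cxcr2) lay below the array median on every array. The other two, S100a8 and S100a9, had 6.55 and 6.74 on starved 2 and were highest on control 2, at 7.67 and 7.93. In the other cell type lists no probe set passed the test, but single markers separated the groups by over 2-fold. Lyve1, an endothelial marker, had 8.89 and 8.02 in starved livers, against 6.64 and 6.65 in control livers. Col3a1, a fibroblast collagen, had 7.24 and 7.70 in starved livers, against 9.29 and 8.70 in control livers, and Fabp2, on the list of gut markers, had 11.64 and 11.97 in starved livers, against 11.08 and 10.32 in control livers. Smaller differences separated the groups for Marco, a macrophage receptor (log2 difference 0.70 ± 0.19, SE), and for Acta2, a marker of activated stellate cells (-0.54 ± 0.16). Marco ran against its list, where 1 probe set separated upward and 2 downward, with a median difference of -0.13 over the genes. The macrophage list averaged 9.15 and 9.33 in starved livers, against 9.13 and 9.50 in control livers. The groups overlapped at 6 of 8 endothelial, 8 of 12 stellate and fibroblast, 11 of 14 macrophage and 3 of 7 kidney, gut and pancreas probe sets. They also overlapped at 3 of 5 bile duct and 3 of 6 lymphocyte probe sets. Over all probe sets 41.9% did not overlap, so in lists this small the counts say little. The endothelial list averaged 7.44 and 7.13 in starved livers, against 7.39 and 6.72 in control livers. The stellate and fibroblast list averaged 7.23 and 7.38 in starved livers, against 7.89 and 7.34 in control livers. The part of such cells in the vanin and CoA values was not tested. The 9 acute phase genes averaged 11.70 and 11.74 in starved livers, against 11.96 and 14.07 in control livers. Control 2 stood apart on this average, but some of the genes were higher in both controls. Saa4 had 12.90 and 13.04 in starved livers, against 13.86 and 13.95 in control livers. Hamp had 12.20 and 12.40 in starved livers, against 13.30 and 13.88 in control livers. Of the 12 acute phase probe sets, 8 separated downward (20.6% of all probe sets did), 0 upward, and 4 overlapped. A difference over 2-fold was seen in 7, and in 1.16% of all probe sets. Without control 2 the differences were 3.06 for Vnn1, 1.45 for Vnn3, 1.35 for Pank3 1426259_at, and -1.32 and -1.33 for Nudt7. In these probe sets the groups do not overlap, so leaving out 1 array could not turn the sign. The part of control 2 in the differences was not tested.

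Other genes around CoA were listed by function, 46 in all, of which 34 were measured by 53 probe sets. The limma test called 0 of these 53, with 10 at an unadjusted p under 0.05 (5 higher and 5 lower) where 11.5% of all probe sets reached it. The called count was also 0 under each of the 12 alternatives run. The groups separated upward in 14, downward in 9 and overlapped in 30, and none differed over 2-fold. Over all probe sets 21.3% separated upward, 20.6% downward, 1.16% differed over 2-fold and 0.0575% were called. In 53 probe sets the counts separated, over 2-fold and called are therefore near the background. The 10 at an unadjusted limma p under 0.05 are a larger share than the 11.5% of all probe sets, and that excess was not tested. The median difference over the 34 genes was 0.12.

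The rest of CoA synthesis and supply had small differences. Ppcdc, the decarboxylase between Ppcs and Coasy, differed by 0.18 ± 0.17 (SE). Slc5a6, the vitamin carrier that takes up pantothenate, differed by -0.07 ± 0.19, and Dcakd, named for a dephospho-CoA kinase domain, by -0.23 ± 0.14. Dcakd separated the groups downward, as 20.6% of all probe sets did. Slc5a6, at 5.57 to 6.04, and Dcakd, at 5.63 to 6.02, lay below the array median on every array, so small differences there say little. Of the CoA carriers, peroxisomal Slc25a17 differed by -0.17 ± 0.20 and mitochondrial Slc25a42 by -0.002 ± 0.19. None of these 5 passed the test.

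Among other enzymes that can cleave CoA, Nudt8, a mitochondrial CoA hydrolase, had 9.32 and 9.11 in starved livers, against 9.03 and 9.15 in control livers, a difference of 0.13 ± 0.13 (SE). Its groups overlapped. Enpp3, a phosphodiesterase on the cell surface, differed by 0.35 ± 0.30 at its brightest probe set, with controls of 9.66 and 10.57 that lay 0.91 apart. Its other probe sets gave 0.24, 0.14, 0.04 and 0.01, all with overlapping groups. Those with 0.14 and 0.04 had low signals, at 4.06 to 4.44 and at 5.24 to 5.38, so their small differences say little. Over 13 further Nudix genes the differences ran from -0.72 to 0.42 with a median of 0.01. The largest were in Nudt2, which cleaves diadenosine tetraphosphate, at -0.72 ± 0.16, in Nudt16l1 at -0.49 ± 0.14 and in Nudt6 at 0.42 ± 0.15, none of them past the test. Nudt2 had 8.47 and 8.85 in starved livers, against 9.40 and 9.35 in control livers, without overlap.

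Cysteamine from vanin activity can be oxidised to hypotaurine and taurine. In that list, 6 of 8 genes were measured and 0 passed the test, with a median difference of 0.38. Csad, which makes hypotaurine from cysteine sulfinate, had 9.75 and 10.91 in starved livers, against 9.26 and 9.76 in control livers. Its groups overlapped, and the difference of 0.82 ± 0.39 (SE) came mostly from starved 2. The taurine carrier Slc6a6 had 8.73 and 8.28 in starved livers, against 9.32 and 9.16 in control livers, at its brightest probe set. That was a difference of -0.73 ± 0.18, while its other 2 probe sets gave 0.004 and 0.005. Those 2 lay below the array median on every array, at 6.55 to 6.63 and at 5.63 to 5.96, so their small differences say little. The monooxygenase Fmo1 had 11.52 and 11.47 in starved livers, against 11.00 and 10.74 in control livers, a difference of 0.63 ± 0.14.

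Vanins belong to the nitrilase family of enzymes. All 8 genes of the list of other family members and beta-alanine metabolism were measured, 0 passed the test, and the median difference was 0.17. Nit2, an omega-amidase, had 10.85 and 11.24 in starved livers, against 11.80 and 11.73 in control livers, a difference of -0.72 ± 0.16 (SE). Nit1, which acts on deaminated glutathione, differed by 0.24 ± 0.12, and Abat, the transaminase of beta-alanine and gamma-aminobutyrate, by 0.34 ± 0.11. Biotinidase, Btd, a relative of the vanins, overlapped between groups with 0.05 ± 0.18.

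**Figure D3:**
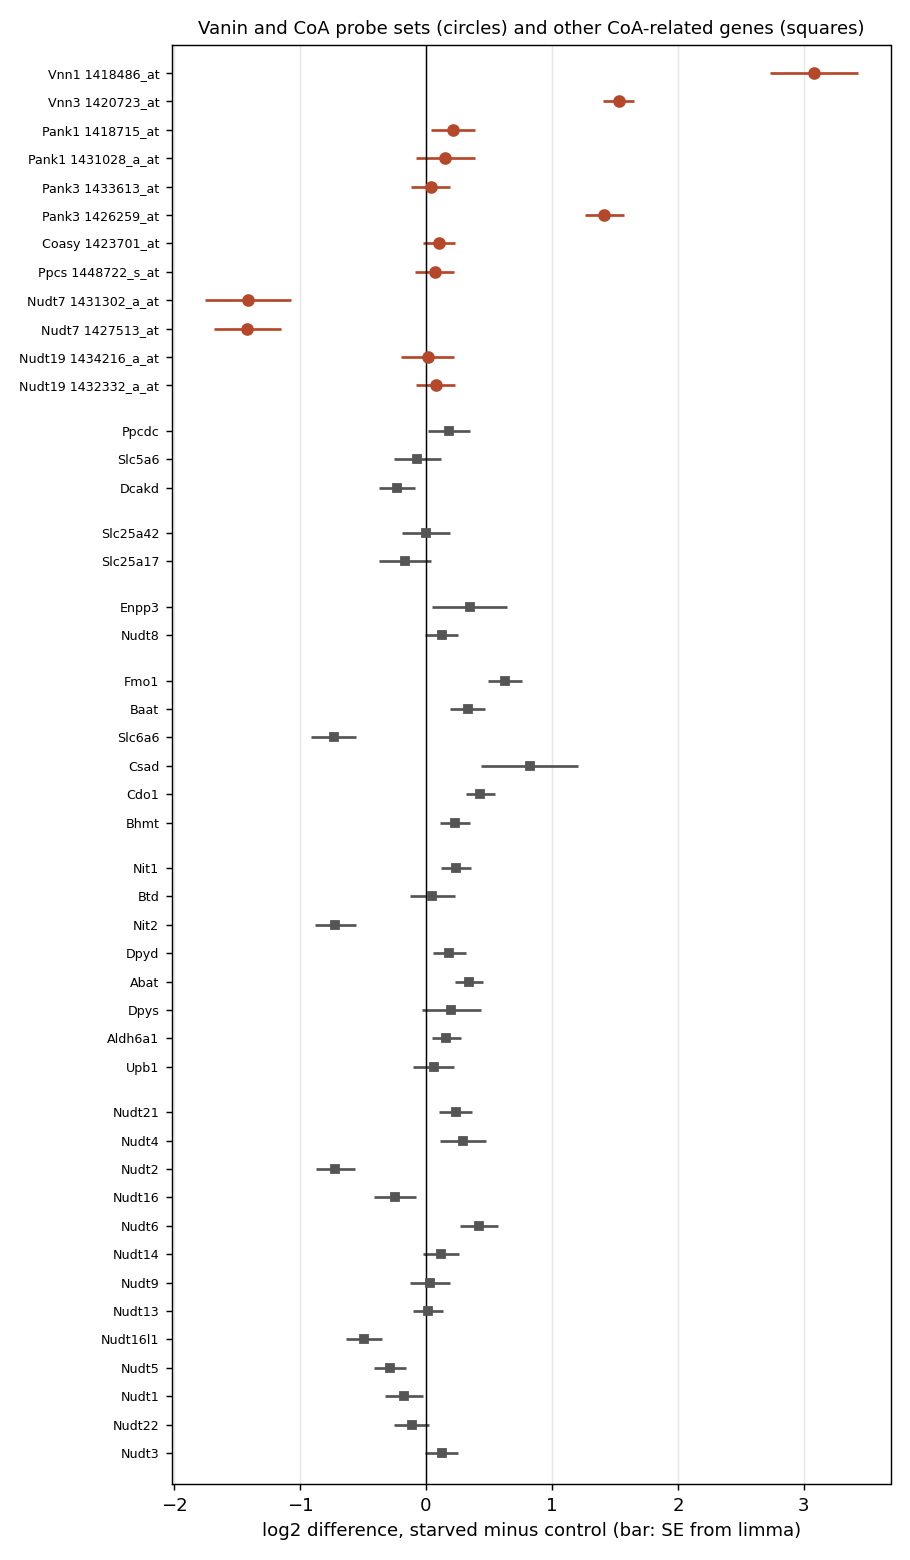
Log2 difference, starved minus control, with SE from limma, for the 12 vanin and CoA probe sets (circles) and for 34 other genes around CoA at their highest-mean probe set (squares, grouped by list). Vnn1, Vnn3 and Pank3 1426259_at lie right of 1 and both Nudt7 probe sets left of -1, and the squares run from -0.73 (Slc6a6) to 0.82 (Csad).

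Profiles over the 4 arrays, each centred on its own mean, were compared with those of the vanins by root mean square distance. The probe sets nearest to Vnn1 belonged to Cyp4a31, an omega hydroxylase (0.30), Retsat, the retinol saturase (0.35 and 0.53 at its 2 probe sets), Ehhadh, which carries out 2 steps of peroxisomal beta-oxidation (0.54), and Rab30, a small GTPase (0.66). None had a starved gap as wide as that of Vnn1: Rab30 had 8.17 and 9.13 in starved livers, against 7.07 and 6.64 in control livers. Cyp4a31 had low control signals of 4.23 and 3.78, and its probes may read related Cyp4a transcripts.

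The probe sets nearest to Vnn3 lay closer. They belonged to Mndal (0.11), the mitochondrial dehydrogenase Hsd17b10 (0.15 and 0.16), the galectin Lgals4 (0.16) and Crat, the carnitine acetyltransferase that moves acetyl groups between CoA and carnitine (0.17). Crat had 8.36 and 8.03 in starved livers, against 6.81 and 6.76 in control livers. With 4 arrays and a single group difference, the distance holds little beyond the size of that difference and the gaps within groups.

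**Figure D4:**
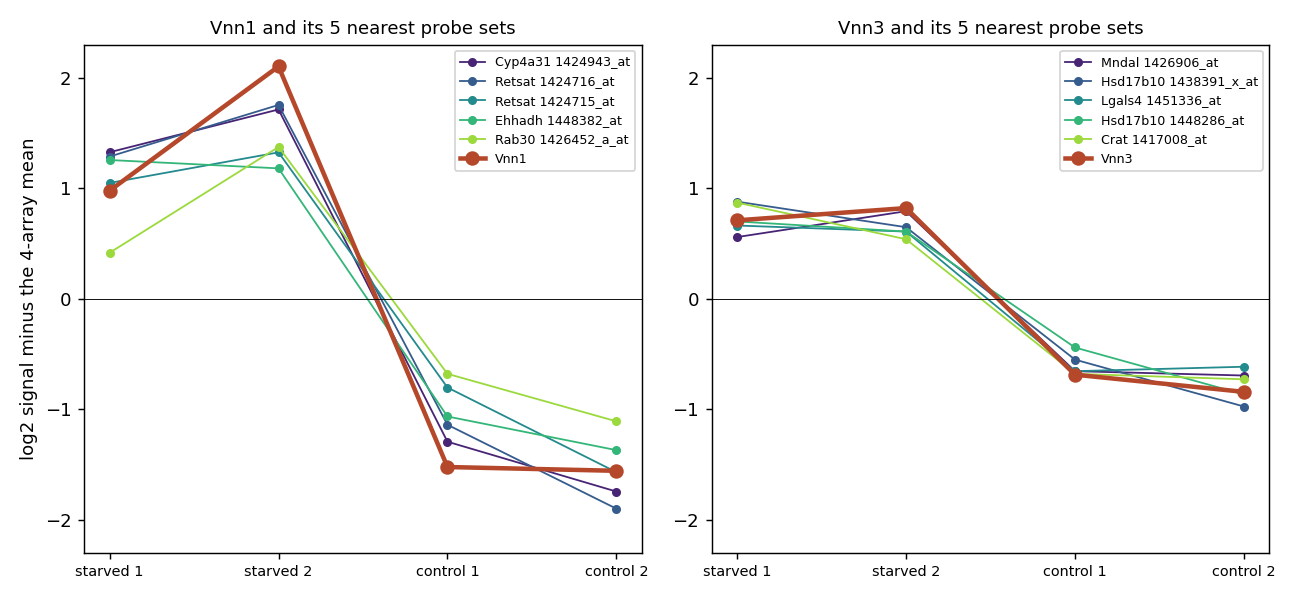
Log2 signal minus the 4-array mean of each probe set on the 2 starved (left) and 2 control (right) arrays, for Vnn1 and Vnn3 (thick lines) and the 5 nearest probe sets of other genes. Vnn1 reads 0.98 and 2.10 on the starved arrays, and Vnn3 0.71 and 0.82.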

How the data were processed

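Liver RNA of 2 starved and 2 control mice was measured on 1 array each. Per the submitters' processing notes the authors used the affy package and RMA, and the deposited values are log2 signals per probe set, a scale that fits their range of 2.83 to 15.47. Tool versions, background settings, slides and scan dates were not given in the sources used here. RMA equalises the distributions of arrays, so these values cannot show a shift shared by the whole transcriptome. Of 22690 probe sets, 64 Affymetrix controls were left out. Of the rest, 20380 had 1 gene symbol, 691 several and 1555 none. For 20351 of the 20380 the gene was matched in a RefSeq table of GRCm38.p6 and its symbol taken from there.

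The groups were compared in limma 3.58.1 (R 4.3.3; lmFit, eBayes), two-sided, with no covariate and Benjamini-Hochberg adjustment over 22626 probe sets. Precision is limited by how few arrays there are, and the median SE of a difference was 0.133. A permutation test of 2 against 2 cannot give a p below 0.333. The fit was tested on simulated data. The genes and lists were chosen with earlier results of these data known. All probe sets of the 9 genes were named, and of each other list genes past the test and the 3 with the largest difference. Btd, the neighbours of the vanins and the gap between probe sets were added after values were seen. For the vanins, the 5 nearest probe sets of other genes were named. Alternatives were another scaling, a filter on low signals, genes as units, probe set types, variance settings, a replicate block and each array left out.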

Additional observations from a re-analysis of the deposited data

How the results depend on the processing

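Variance settings, the block, the filter and the choice of 1 probe set per gene leave a difference as it is by construction, so the differences could move only with the scaling, the mean of probe sets or an array left out. Pank3 came to 0.73 with the mean of its probe sets. With an array left out, the sign could not turn where the groups do not overlap (Vnn1, Vnn3, Pank3 1426259_at and both of Nudt7), and it turned in 5 of the other probe sets, which lay near 0. The count of the 12 called by limma was 1, but 2 with trend and robust settings, and 0 to 1 with each array left out. Over all probe sets the count of 13 became 8 with 1 probe set per gene, 23 without _x_at and _s_at probe sets, 59 with trend and robust settings, and 2 to 57 with each array left out; it was 2 without starved 1 and 57 without control 1. The count for the other CoA genes stayed at 0 in limma in every alternative. With the replicate number as a block, limma called 0 of the 12 (5 at an unadjusted p under 0.05) and 0 of all probe sets (2534 at that level). The labels share only a number between groups, and deviations of same-numbered arrays correlated by 0.04 across probe sets. With 1 array left out, the lone array left is assumed to vary as the other group does.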
